A study of Mus musculus with 17 samples.

Results

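Fscn1, Nes, Cdh17, Evc2 and Zfp711 encode 3 structural or adhesion proteins, a ciliary signalling protein and a zinc finger transcription factor. They are 5 of the 24416 genes counted and 5 of the 13558 that passed the filter on low counts. They were chosen by their measured values, as the genes outside the LIN28B axis with the largest excess of messenger RNA (mRNA) in wild-type fetal liver progenitors over wild-type adult marrow progenitors, so that contrast is described here and not tested. All 5 passed the filter, which for these genes the fetal libraries alone could satisfy.

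The mRNA came from mouse common myeloid progenitors (CMPs), sorted by flow cytometry, which give rise to the white cells of the myeloid series as well as to red cells and platelets. The fetal liver groups were Lin28b knockout (n = 3), inducible let-7 (n = 1) and wild type (n = 3). The adult bone marrow groups were let-7b/c knockout (n = 3), inducible LIN28B (n = 2), inducible LIN28B under vavcre (n = 2) and wild type (n = 3). The strain was C57BL/6J in every group except the let-7b/c knockout, which was albino black 6. The design text gives vavcre as confining induction to blood-forming cells, and the labels list doxycycline induction of Lin28b as a treatment for all 17 libraries, wild type included. Ages, the promoter behind the inducible alleles and the number of animals behind each group are not stated in the labels, so p-values measure the spread between libraries, which may be technical.

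LIN28B binds let-7 precursor RNAs in fetal blood progenitors and keeps them from maturing into let-7 microRNAs. Mature let-7 pairs through its seed with sites in the 3′ untranslated regions of target messages, such as Hmga2, and lowers them. Fascin, the product of Fscn1, bundles actin filaments in filopodia, and nestin, the product of Nes, is an intermediate filament protein best known from neural progenitors. Cadherin 17 is a calcium-dependent adhesion protein of the gut lining that is also made in the mouse B cell lineage. EVC2 is a membrane protein at the base of the primary cilium that works with its partner EVC in hedgehog signalling. ZFP711 belongs to the ZFX family of zinc finger proteins and is encoded on the X chromosome.

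The mature sequences of the microRNAs named in the let-7b/c knockout label are shown because their seed, bases 2 to 8 in capitals, defines the sites searched for in the 5 messages. Both come from RefSeq on GRCm38.p6, chromosome 15, plus strand, and they share the seed. Their positions are chr15:85706616-85706637 for let-7c, from the let-7c-2 hairpin, and chr15:85707325-85707346 for let-7b.
mmu-let-7c-5p: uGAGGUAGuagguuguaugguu
mmu-let-7b-5p: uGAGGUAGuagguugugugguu
The complement of the seed, CTACCTC, was not present in the 3′ untranslated region or elsewhere in the transcript of any of the 5 genes. The shorter complement TACCTC was also absent from their 3′ untranslated regions, which were 379 bases (Evc2) to 1506 bases (Zfp711) long in GENCODE. Among the longest 3′ untranslated regions of 21077 genes, 8.986% held CTACCTC and 23.333% held TACCTC. Of regions as long as that of Zfp711, the longest, 10.431% held CTACCTC, and of regions as long as that of Evc2, the shortest, 3.236% did. The 5 genes were searched only in the transcript matched to their RefSeq entry. Hmga2, Lin28b and Igf2bp1 held 4 matches each and Igf2bp2 and Igf2bp3 held 1 each. These were counted in the longest region of each gene, from 1784 bases (Igf2bp2) to 6337 bases (Igf2bp1). These matches describe letters and not sites shown to be bound.

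RefSeq start regions were found for Fscn1, Nes and Evc2, and not for Cdh17 and Zfp711. The 100 bases before each start are shown because these 3 genes share a near absence in wild-type marrow, with matches to 6 searched motifs in capitals. All are on the plus strand of GRCm38.p6, at chr5:142960255-142960354 for Fscn1, chr3:87970993-87971092 for Nes and chr5:37338378-37338477 for Evc2.
Fscn1: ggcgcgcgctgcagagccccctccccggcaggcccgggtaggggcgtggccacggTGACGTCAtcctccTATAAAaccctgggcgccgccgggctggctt
Nes: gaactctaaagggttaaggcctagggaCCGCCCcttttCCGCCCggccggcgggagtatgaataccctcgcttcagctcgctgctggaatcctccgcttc
Evc2: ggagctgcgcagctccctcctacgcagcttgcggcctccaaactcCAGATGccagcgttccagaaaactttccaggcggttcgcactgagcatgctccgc
The motifs, searched on both strands from 250 bases before to 50 after each start, were the TATA box TATAAA, the cAMP response element TGACGTCA, the GC box GGGCGG, the CCAAT box CCAAT, the GATA motif AGATAA and the E box CANNTG, and none of the matches overlapped another. Fscn1 held a TATA box at -31 to -26 and a cAMP response element at -45 to -38, counted from the start of the gene. Of 32851 such regions, 13.616% held a TATA box and 1.79% the response element. Nes held 2 GC boxes on the minus strand, at -73 to -68 and -62 to -57, and Evc2 held 1 just after its start, at 6 to 11. GC boxes were in 35.658% of regions. Evc2 also held an E box at -55 to -50, as did 72.314% of regions. CCAAT boxes (37.408% of regions) and GATA motifs (11.178%) were not found in these 3 windows. The 3 windows held 18 to 21 CpG dinucleotides, against a median of 7, and 29.722% of regions held at least 18.

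Counts summed over genes ranged from 14957111 to 28165554 per library, and levels are given as counts relative to library size (CPM), scaled by the trimmed mean of M values (TMM). The CMP marker Mpo was high in all libraries, at 3166 to 5570 CPM in the libraries labelled Lin28b knockout and 4805 to 6294 CPM in wild-type fetal liver. Runx1, another CMP marker, was counted at 0 in all 17. Lin28b itself was at 104 ± 12.9 CPM in the libraries labelled Lin28b knockout and 104 ± 17.6 CPM in wild-type fetal liver (SD, n = 3 each), so total Lin28b counts did not show the labelled loss. Which part of the gene was removed is not stated, and counts over the whole message cannot show a loss of part of it. Hmga2, a known let-7 target, was at 22.6 ± 2.65 and 532 ± 11.2 CPM in these groups. The libraries labelled knockout also stood apart by markers of other cells. Summed erythroid markers (8 genes) were 20206 to 25216 CPM in them and 230 to 341 CPM in wild-type fetal liver, and all 8 were called higher. Summed hepatocyte markers (10 genes) were 483 to 1554 CPM against 98.0 to 106 CPM, and summed stroma markers (10 genes) were 23.2 to 117 CPM against 2.29 to 3.82 CPM. Of the 8 hepatocyte and 7 stroma markers tested, 8 and 6 were called higher. Summed dendritic markers (8 genes) were 40.4 to 43.6 CPM in them against 17.3 to 17.8 CPM, with 3 of 6 tested called higher. Summed neural crest and glia markers (7 genes) were 20.9 to 25.9 CPM against 0.182 to 0.286 CPM, with Gfap, at a mean of 22.0 CPM, the one of 3 tested that was called. Summed B and lymphoid markers (10 genes) were 48.6 to 58.4 CPM against 157 to 193 CPM, with 4 of 8 tested called lower (Cd79b, Rag2, Il7r and Rag1). In the labelled knockout Pdgfra (stroma), Dntt (lymphoid) and S100b (glia) were at 0. Ahsg and Serpina1a (hepatocyte), Pdgfrb (stroma), Ebf1 (lymphoid) and Ccr7 (dendritic) were at 0 in all 17 libraries, as Runx1 was. Reads that fit several transcripts had been set aside in counting, so a 0 does not show that a gene was not expressed. Summed CMP markers (10 genes) were 3488 to 6019 CPM in the libraries labelled knockout and 5806 to 7342 CPM in wild-type fetal liver. Most of each sum was Mpo. Of the 9 tested, 5 were called lower (Flt3, Gata2, Spi1, Cd34 and Myb) and 1 higher (Cebpe). Flt3 was at 28.7 to 48.6 CPM in the labelled knockout and 381 to 417 CPM in wild-type fetal liver. Gata2 was at 37.6 to 47.4 and 208 to 229 CPM. In bulk RNA, fewer cells of a type and less RNA per cell cannot be told apart.

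Fscn1 (NM_007984, chr5:142960355-142973189, mm10) had 6.68, 11.6 and 9.48 CPM in the libraries labelled Lin28b knockout, 54.0 CPM in the inducible let-7 library and 77.9, 67.4 and 84.5 CPM in wild-type fetal liver. In marrow it had 0.595, 0.226 and 0.0520 CPM in let-7b/c knockout, 0.607 and 0.430 CPM with inducible LIN28B, 0 and 0.253 CPM with vavcre, and 0.496, 0.468 and 0.274 CPM in wild type. Every fetal library lay above every marrow library, and the 4 marrow groups overlapped each neighbour in the order of means.

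Nes (NM_016701, chr3:87971093-87980451) had 6.73, 6.98 and 7.96 CPM in the libraries labelled Lin28b knockout, 0.0775 CPM in the inducible let-7 library and 26.0, 25.4 and 27.7 CPM in wild-type fetal liver. In marrow it had 0, 0 and 0.260 CPM in let-7b/c knockout, 1.15 and 0.161 CPM with inducible LIN28B, 4.77 and 0 CPM with vavcre, and 0.0993, 0.0585 and 0.383 CPM in wild type. The wild-type fetal libraries lay close together and highest. The inducible let-7 library fell among the marrow libraries, and 1 vavcre library stood above the other marrow libraries.

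Cdh17 (NM_019753, chr4:11758157-11817905) had the lowest level of the 5 per kilobase of transcript in wild-type fetal liver. It had 0.105, 1.94 and 1.52 CPM in the libraries labelled Lin28b knockout, 0 CPM in the inducible let-7 library and 12.7, 11.7 and 10.1 CPM in wild-type fetal liver. In marrow it had 0.108, 0 and 0 CPM in let-7b/c knockout, 0.121 and 0.860 CPM with inducible LIN28B, 0.0422 and 0 CPM with vavcre, and 0.546, 0 and 0 CPM in wild type. Only the wild-type fetal libraries were clear of all others, since 1 library labelled knockout lay within the marrow range.

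Evc2 (NM_145920, chr5:37338478-37425055) had 11.99, 11.2 and 13.5 CPM in the libraries labelled Lin28b knockout, 45.8 CPM in the inducible let-7 library and 18.5, 17.1 and 21.9 CPM in wild-type fetal liver. In marrow it had 0.162, 1.64 and 1.77 CPM in let-7b/c knockout, 0.0607 and 0 CPM with inducible LIN28B, 0.0422 and 0.0844 CPM with vavcre, and 0.0496, 0 and 0 CPM in wild type. Evc2 differed from the other 4 genes in having its highest value in the inducible let-7 library. The let-7b/c knockout libraries lay above all other marrow libraries.

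Zfp711 (NM_177747, chrX:112600526-112635070) had 3.47, 2.64 and 8.01 CPM in the libraries labelled Lin28b knockout, 39.4 CPM in the inducible let-7 library and 65.0, 65.1 and 92.3 CPM in wild-type fetal liver. In marrow it had 0.108, 0.962 and 4.89 CPM in let-7b/c knockout, 1.15 and 3.92 CPM with inducible LIN28B, 4.22 and 9.87 CPM with vavcre, and 1.94, 1.46 and 1.53 CPM in wild type. It was the one member with counts in every marrow library at a mean above 1 CPM in each group. The labelled knockout libraries overlapped 3 marrow groups and were clear only of wild-type marrow.

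**Figure D1:**
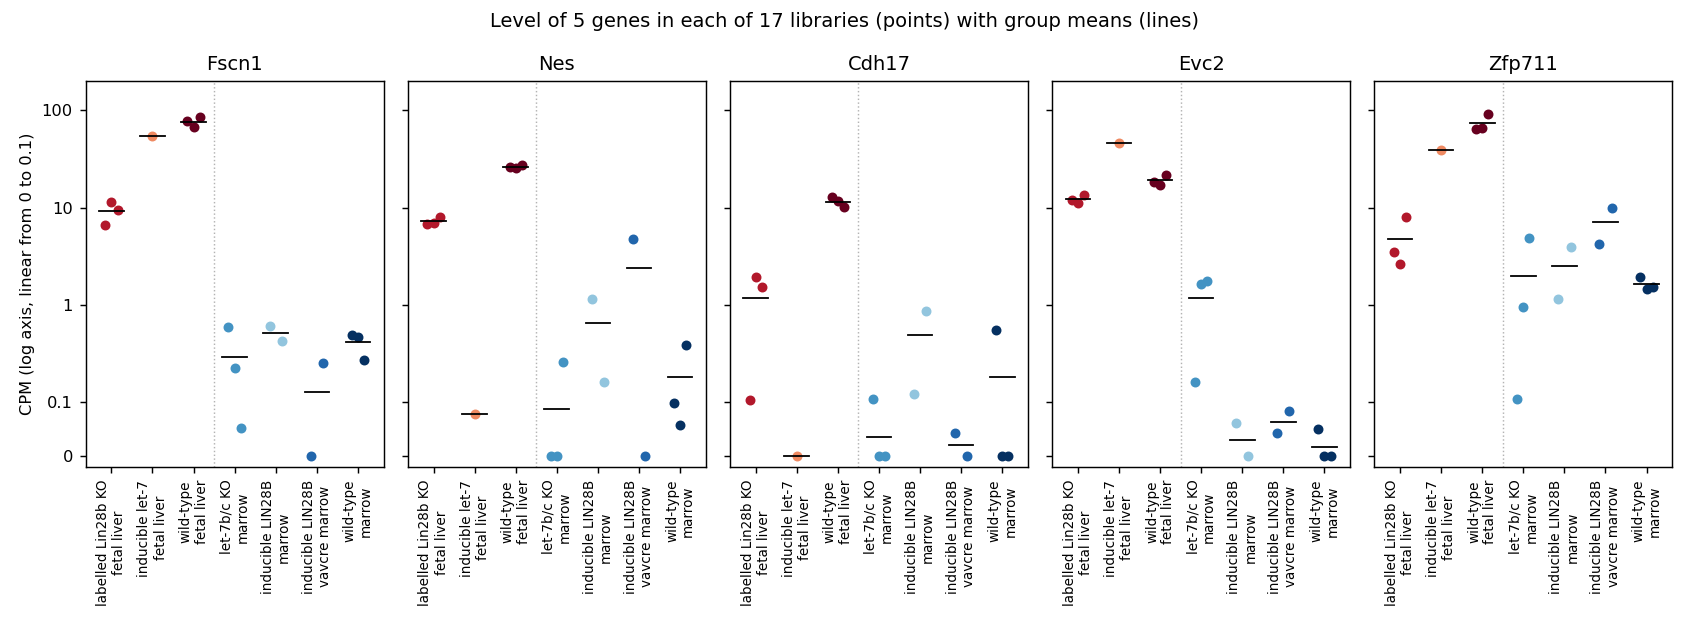
Level of each gene in CPM (log axis, linear from 0 to 0.1) in each of 17 libraries (points), with group means as lines; the dotted line separates fetal liver (left) from marrow (right). Wild-type fetal libraries were the highest for Fscn1, Nes, Cdh17 and Zfp711, and the inducible let-7 library, at 45.8 CPM, was the highest for Evc2.

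The choice rested on the ratio of wild-type fetal liver to wild-type marrow, which is given as a description. A list of 1660 genes was called higher in wild-type fetal liver (edgeR adjusted p under 0.05), without overlap and at 10 CPM or more there. In it Evc2 ranked 1, Fscn1 ranked 5, Nes ranked 6, Cdh17 ranked 8 and Zfp711 ranked 9 by fitted ratio. The 5 genes were chosen by this contrast, so being on the list is no test of them. The other places down to 9 belonged to Igf2bp1, Lin28b and Igf2bp3 of the axis and to Xist. Zfp711, the last member inside, had means of 74.1 CPM in wild-type fetal liver and 1.64 CPM in wild-type marrow, and Id3, the next gene outside, had 30.7 CPM and 0.709 CPM. Without these limits, among all 13558 genes tested, Evc2 ranked 1, Fscn1 10, Nes 13, Cdh17 37 and Zfp711 57. Fscn1 was 182-fold, Nes 141-fold, Cdh17 58.4-fold and Zfp711 44.8-fold higher by the fit. The ratio of Cdh17 rested on wild-type marrow library 2, the one of that group with counts, and its log2 value was 5.87 with all libraries and 10.8 without that one, where the fitted value is no bound. For Nes the log2 value was 7.14 with all libraries and 8.27 without wild-type marrow library 6. The single marrow count of Evc2 was also in library 2. Evc2 had 1106 counts in wild-type fetal liver and 1 in wild-type marrow, a ratio of 1057 with a 95% exact counting interval of 189 to 41785. Counting intervals cover counting error only. Per kilobase of transcript, the mean level in wild-type fetal liver was 28.6 CPM for Fscn1, 17.1 for Zfp711, 4.68 for Evc2, 4.31 for Nes and 3.32 for Cdh17, each in CPM per kilobase.

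The libraries labelled Lin28b knockout ask whether the 5 genes keep their fetal level in that genotype. Fscn1, Cdh17 and Zfp711 fell and none rose, so 3 of 5 were called lower. Of all genes tested, 23.0% were called lower and 43.8% were called in either direction, so a call is common in this contrast. The calls over all genes were 2823 higher and 3118 lower, or 2247 higher and 4112 lower with plain library sizes, which left the calls of the 5 genes as they were. The wild-type fetal libraries also served to choose the genes, the labelled knockout libraries did not. Choice by high wild-type fetal values favours lower values here, so the shares over all genes are no even comparison. Zfp711 averaged 4.71 ± 2.89 CPM in the labelled knockout and 74.1 ± 15.7 CPM in wild-type fetal liver (SD, n = 3 each), 15.6-fold lower by the fit (log2 difference -3.97 ± 0.72 SE, edgeR quasi-likelihood test, adjusted p = 0.0003546). Without labelled knockout library 8, which had 8.01 CPM, the log2 difference was -4.59 (edgeR adjusted p = 0.0007514). Fscn1 averaged 9.24 ± 2.45 and 76.6 ± 8.61 CPM, 8.30-fold lower (log2 -3.05 ± 0.37 SE, edgeR adjusted p = 5.954e-06). Cdh17 averaged 1.19 ± 0.96 and 11.5 ± 1.33 CPM, 9.68-fold lower (log2 -3.27 ± 0.995 SE, edgeR adjusted p = 0.01433).

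Nes and Evc2 did not pass this test, although for both the 3 libraries of each group did not overlap. Nes averaged 7.22 ± 0.65 CPM in the labelled knockout and 26.4 ± 1.20 CPM in wild-type fetal liver, a log2 difference of -1.87 ± 0.87 SE (edgeR adjusted p = 0.0971). Evc2 averaged 12.2 ± 1.19 and 19.1 ± 2.48 CPM, a log2 difference of -0.64 ± 0.44 SE (edgeR adjusted p = 0.261). In a fit of these groups alone both were called lower, with edgeR adjusted p = 3.321e-06 for Nes and 0.008488 for Evc2. All 5 genes were lower in the labelled knockout without overlap, as were 30.9% of all genes tested. The median log2 difference was -3.05 over the 5 genes and 0 over all genes tested, which were not chosen by high values in the comparator. The erythroid, hepatocyte, stroma, dendritic and glial markers given above were higher in this contrast and the lymphoid ones lower, among them Rag1 at 1.64 against 9.55 CPM. Cdh17, which is also made in the B cell lineage, fell beside the lymphoid markers, and the part of any of these cells in the 5 genes was not tested.

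**Figure D2:**
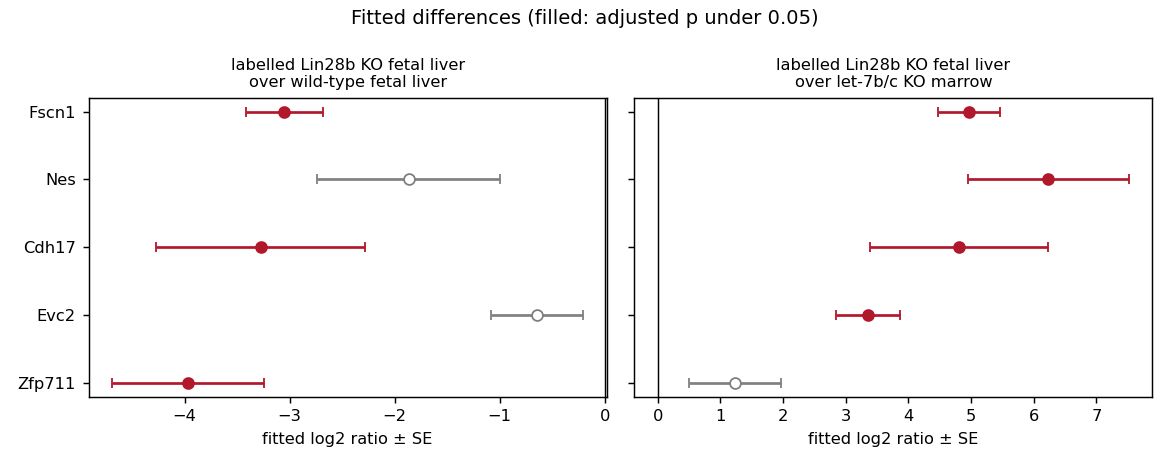
Fitted log2 ratios of each gene with standard errors (bars) from the edgeR fit of all 17 libraries; left, labelled Lin28b knockout over wild-type fetal liver, right, labelled Lin28b knockout over let-7b/c knockout marrow. Filled points passed an adjusted p of 0.05: Fscn1, Cdh17 and Zfp711 on the left, and Fscn1, Nes, Cdh17 and Evc2 on the right.

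The same fetal libraries set against let-7b/c knockout marrow give a fetal and adult difference in libraries that the choice did not use, with tissue, genotype and strain all differing. Cell markers differed too. Summed erythroid markers were 20206 to 25216 CPM in the labelled knockout and 158 to 298 CPM in let-7b/c knockout marrow, stroma markers 23.2 to 117 against 4.41 to 10.8 CPM, hepatocyte markers 483 to 1554 against 366 to 423 CPM, and neural crest and glia markers 20.9 to 25.9 against 0.378 to 0.679 CPM. All 8 erythroid markers tested were called higher, as were 4 of 7 stroma and 2 of 3 glia markers. Of 8 hepatocyte markers tested, 7 were called higher and Trf lower. CMP markers were 3488 to 6019 against 14917 to 18129 CPM, dendritic markers 40.4 to 43.6 against 102 to 138 CPM and lymphoid markers 48.6 to 58.4 against 80.7 to 90.1 CPM. Of 8 lymphoid markers tested, Cd79a and Rag1 were called higher and Cd79b and Rag2 lower, with Rag1 at 1.64 against 0.291 CPM. Of 9 CMP markers 7 were called lower and Cebpe higher, and of 6 dendritic markers 3 were called lower and Zbtb46 higher. Endothelium markers were 39.4 to 51.0 against 43.0 to 65.0 CPM, with 3 of 5 tested called higher and 1 lower. Xist was 0.473, 0.352 and 155 CPM in the labelled knockout libraries and 160 to 228 CPM in let-7b/c knockout marrow. The part of cell content and sex in the calls of the 5 genes was not tested. Fscn1, Nes, Cdh17 and Evc2 were higher in the labelled knockout fetal libraries and Zfp711 was not called, so 4 of 5 were called higher, against 22.8% of all genes tested. Over all genes 3091 were called higher and 3275 lower, or 2125 and 4475 with plain library sizes. Fscn1 was 31.2-fold higher (log2 4.97 ± 0.50 SE, edgeR adjusted p = 6.927e-07) and Evc2 was 10.2-fold higher (log2 3.36 ± 0.51 SE, edgeR adjusted p = 5.22e-05). Nes was 75.3-fold higher by the fit (edgeR adjusted p = 0.0008702), on 404 counts in the labelled knockout and 5 in let-7b/c knockout marrow. Cdh17 passed with an edgeR adjusted p of 0.011, on 65 and 2 counts, a ratio of 32.3 with an exact counting interval of 8.58 to 272. These ratios moved with single let-7b/c knockout libraries, and all 3 genes were still called without them. The log2 difference of Fscn1 was 6.07 without library 1 (edgeR adjusted p = 1.061e-06). All counts of Nes in let-7b/c knockout marrow were in library 3, and those of Cdh17 in library 1. Without these the fitted log2 values, no bounds, were 10.2 for Nes against 6.24 with all libraries (edgeR adjusted p = 0.002286) and 7.60 for Cdh17 against 4.81 (edgeR adjusted p = 0.01693). The libraries of Fscn1, Nes and Evc2 did not overlap, as for 29.0% of all genes in this direction.

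Zfp711 averaged 4.71 ± 2.89 CPM in the labelled knockout fetal libraries and 1.99 ± 2.55 CPM in let-7b/c knockout marrow (log2 1.24 ± 0.73 SE, edgeR adjusted p = 0.182). Without let-7b/c knockout library 3, which had 4.89 CPM, the log2 difference was 3.18 (edgeR adjusted p = 0.003282), and without labelled knockout library 8 it was 0.61 (edgeR adjusted p = 0.573). Against the mean of the 3 mutant marrow groups the log2 differences were 5.08 for Fscn1, 6.42 for Evc2, 3.77 for Nes and 3.83 for Cdh17, all called, and 0.51 for Zfp711, which was not.

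In marrow, the libraries labelled let-7b/c knockout ask whether the labelled loss raises the 5 genes. The hairpins of let-7b and let-7c-2 had 0 counts in all 17 libraries, so mature let-7 was not measured. Lncppara, the RNA whose gene spans both hairpins (chr15:85703773-85707524), had 15.8, 11.0 and 11.1 CPM in the let-7b/c knockout and 0.199, 0.0585 and 0 CPM in wild-type marrow. The let-7 target Hmga2 was lower in the knockout, at 7.80 ± 2.89 CPM against 31.9 ± 3.46 CPM in wild-type marrow (SD, n = 3 each, log2 -2.03 ± 0.18 SE, edgeR adjusted p = 2.787e-05), where 0.922% of all genes were called lower. Hmga2 counts thus showed no rise of this target in the labelled loss of let-7b/c. The wild-type marrow libraries, the comparator here and for both LIN28B lines, also served to choose the genes. Choice by low values in these libraries favours higher values against them. Evc2 alone of the 5 was called, against 1.33% of all genes called higher. It had 3, 29 and 34 counts in the knockout libraries, 66 in all, and 1 count in wild-type marrow, a ratio of 66.1 with an exact counting interval of 11.5 to 2650 (edgeR adjusted p = 0.007806). Its libraries did not overlap, as for 10.3% of all genes in this direction, and the call held without each library in turn (edgeR adjusted p = 8.874e-05 to 0.04011). Its fitted log2 difference was 5.62 with all libraries and 7.55 without wild-type marrow library 2, which held the one marrow count. The calls over all genes in either direction, 305, fell to 130 without knockout library 2 and to 96, 191 and 142 without wild-type marrow library 2, 5 and 6. Even so, its mean of 1.19 ± 0.89 CPM in the knockout stood beside 19.1 ± 2.48 CPM in wild-type fetal liver. Fscn1, Nes, Cdh17 and Zfp711 were not called (edgeR adjusted p = 0.5888 to 0.9193). The 3 knockout libraries were albino black 6 and differed from wild-type marrow in Xist (160 to 228 CPM against 0.176 to 0.274 CPM), so strain, sex and genotype cannot be told apart. Summed dendritic markers were 102 to 138 CPM in the knockout and 42.0 to 51.0 CPM in wild-type marrow, with 1 of 6 tested called higher (H2-Ab1). Summed CMP markers were 14917 to 18129 and 10628 to 12685 CPM, with Csf1r called higher and Gata2 lower of 9 tested. The part of these cells in the Evc2 call was not tested.

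Inducible LIN28B without vavcre gave no call among the 5 genes, with edgeR adjusted p = 0.736 to 0.976, and 0.804% of all genes were called in either direction. Those 109 calls fell to 26 to 62 without any 1 of the 5 libraries. At an unadjusted p under 0.05 the count was also 0 of 5, and DESeq2 called none of Fscn1, Nes, Cdh17 and Zfp711. Lin28b was called in the same contrast, at 2.67 ± 0.86 CPM in the induced line (SD, n = 2) and 0.359 ± 0.351 CPM in wild-type marrow (SD, n = 3), with an edgeR adjusted p of 0.0177. That level, counted over the mouse message, was far under the 104 CPM of wild-type fetal liver. Reads of an induced allele that differs from the mouse message may not be counted, so this value may not measure the induced level. The let-7 target Hmga2 was called higher as well, at 60.2 ± 0.96 CPM in the induced line (SD, n = 2) and 31.9 ± 3.46 CPM in wild-type marrow (SD, n = 3, edgeR adjusted p = 0.02343). Evc2 rested on 1 count in each group and has no ratio.

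With vavcre, Hmga2 was at 88.9 ± 4.51 CPM (SD, n = 2), against the same wild-type level of 31.9 ± 3.46 CPM (SD, n = 3, edgeR adjusted p = 3.609e-05). Of the 5 genes, 1 was called higher, against 12.5% of all genes (14.3% were called lower), and that call rested on 1 library. Nes had 4.77 CPM (113 counts) in library 4 and 0 CPM in library 6 of the vavcre line, against 0.0585 to 0.383 CPM in wild-type marrow (log2 3.68 ± 1.23 SE, edgeR adjusted p = 0.0378). Without wild-type marrow library 6 the log2 difference was 4.79, and without vavcre library 6 it was 4.67, both called. Without wild-type marrow library 2 or 5 it was not called (log2 3.37 and 3.29, edgeR adjusted p = 0.115 and 0.106). Without library 4 the log2 difference was -4.83 (edgeR adjusted p = 0.188), and DESeq2 did not call it (adjusted p = 0.0671). Zfp711 was above wild-type marrow in both vavcre libraries, at 7.05 ± 3.996 CPM (SD, n = 2) against 1.64 ± 0.25 CPM (SD, n = 3), but missed the threshold (log2 2.09 ± 0.79 SE, edgeR adjusted p = 0.0629). It passed in a fit of these groups alone (edgeR adjusted p = 0.0361), without the filter on low counts (edgeR adjusted p = 0.0163) and without vavcre library 4 (log2 2.58, edgeR adjusted p = 0.0332), and had a log2 difference of 1.35 without vavcre library 6. No overlap in the higher direction was seen for 19.9% of all genes. Fscn1 lay below wild-type marrow in both libraries, as did 25.8% of all genes, and was not called (edgeR adjusted p = 0.150), except without vavcre library 6 (log2 -6.00, edgeR adjusted p = 0.021). No gene of the 5 differed between the vavcre and no-vavcre lines (edgeR adjusted p = 0.124 to 0.738), against 20.6% of all genes, and at an unadjusted p under 0.05 Fscn1 and Cdh17 did, both lower with vavcre. Summed erythroid markers were 517 to 617 CPM with vavcre and 228 to 390 CPM in wild-type marrow, and summed lymphoid markers 124 to 135 and 76.5 to 79.6 CPM, and their part in these values was not tested.

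Zfp711 is X-linked, and the libraries differed in Xist, the RNA that coats the inactive X chromosome. Zfp711 had 3.47 and 2.64 CPM in the labelled knockout libraries with 0.473 and 0.352 CPM of Xist, and 8.01 CPM in the one with 155 CPM. Within wild-type fetal liver Zfp711 had 65.0, 65.1 and 92.3 CPM beside 107, 45.8 and 6.82 CPM of Xist. The Y-linked gene Ddx3y was at 0.0908, 53.7 and 93.5 CPM in the same libraries, so libraries 4 and 5 held both RNAs. Whether they pooled animals of both sexes is not stated. Both vavcre libraries had high Xist (164 and 173 CPM) and wild-type marrow had at most 0.274 CPM, and the part of sex in the values of Zfp711 was not tested. In the inducible let-7 library Xist was 0.233 CPM.

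A single library represents inducible let-7, so its values carry counting intervals and no test. The 5 genes split in it. Nes had 2 counts in this library and 1530 in wild-type fetal liver, 340-fold lower with an exact counting interval of 94.0 to 2810. Cdh17 had 0 counts in this library and 674 in wild-type fetal liver. Against a floor of 3 counts, or 0.116 CPM, it was at least 99.8-fold lower. The exact counting interval, as used for the other genes, starts at 81.0-fold. Fscn1 and Zfp711 were nearer to the wild-type level, at 0.706 times (0.664 to 0.750) and 0.538 times (0.502 to 0.577) of it. Evc2 was 2.40 times the wild-type level (2.21 to 2.61).

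The LIN28B axis gives the setting for this library. Hmga2 was at 25.2 CPM in it and 532 CPM in wild-type fetal liver, and Igf2bp2 was at 0.543 and 236 CPM. Igf2bp1 was at 93.6 and 207 CPM, Igf2bp3 at 320 and 280 CPM, and Lin28b at 91.2 and 104 CPM. As a share of the wild-type fetal mean, Nes was at 0.294% and Igf2bp2 at 0.230%. Summed lymphoid markers (10 genes) were 43.1 CPM in the inducible let-7 library and 157 to 193 CPM in wild-type fetal liver, with Il7r, Pax5 and Igll1 at 0 in the inducible let-7 library alone of these and Ebf1 and Dntt at 0 in both groups, and their part in the Cdh17 value was not tested. CMP markers summed to 17802 CPM in this library and 5806 to 7342 CPM in wild-type fetal liver, most of it Mpo. Cd34, Mpo, Spi1 and Csf1r were above the wild-type fetal range and Flt3, Gata2, Myb, Cebpe and Irf8 below it. Erythroid markers summed to 151 against 230 to 341 CPM. Hepatocyte markers, 1 of them at 1 CPM or more in this library, summed to 226 against 98.0 to 106 CPM. The part of cell content in the split was not tested. Compared with the libraries labelled Lin28b knockout, the inducible let-7 library had 54.0 against 9.24 CPM of Fscn1, 39.4 against 4.71 CPM of Zfp711 and 0.0775 against 7.22 CPM of Nes.

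**Figure D3:**
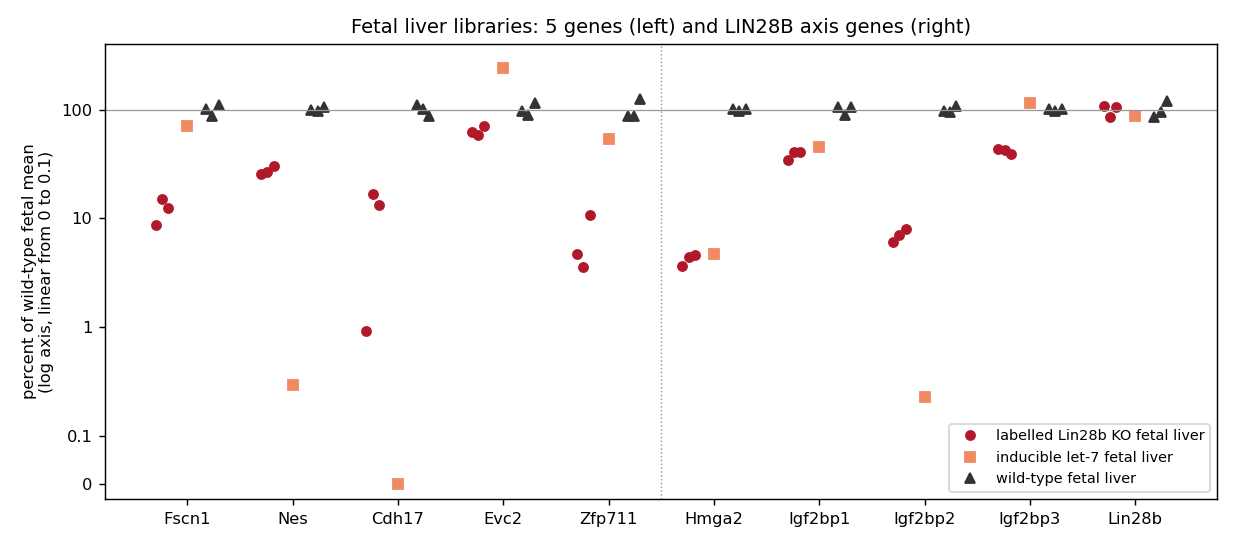
Level of each gene in each fetal library as percent of the wild-type fetal mean (log axis, linear from 0 to 0.1), for the 5 genes (left of the dotted line) and for genes of the LIN28B axis (right). In the inducible let-7 library (square) Nes was at 0.294%, Cdh17 at 0% and Evc2 at 239%, while in the labelled Lin28b knockout libraries (circles) Evc2 was at 58.5% to 70.7% and Zfp711 at 3.56% to 10.8%.

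Relatives of the 5 genes were counted from fixed lists, in wild-type fetal liver against wild-type marrow, where 27.1% of all genes were called, 13.9% higher and 13.2% lower (1887 higher and 1790 lower, or 1407 and 2286 with plain library sizes). Of 19 tested actin bundlers and filopodium proteins other than Fscn1, none rose and 3 fell. These were Diaph1 and Diaph3, formins that extend actin filaments, and Actn1, an actin crosslinker. Diaph1 had 21.5 ± 1.85 CPM in wild-type fetal liver and 42.0 ± 3.74 CPM in wild-type marrow (SD, n = 3 each, edgeR adjusted p = 0.0001794). Of 13 intermediate filament and lamin genes other than Nes, Lmnb1 rose, at 607 ± 20.8 against 478 ± 14.5 CPM (edgeR adjusted p = 0.01185), and the keratin Krt18 and the neurofilament Nefh fell. Vim, the vimentin gene and a filament partner of nestin, was at 672 ± 62.0 and 712 ± 110 CPM and was not called (edgeR adjusted p = 0.767). Of 10 cadherins and catenins other than Cdh17, Ctnnd2 and Jup rose and Cdh1, the E-cadherin gene, fell. Ctnnd2, a delta-catenin, had 4.54 ± 0.48 CPM in wild-type fetal liver and 0.396 ± 0.469 CPM in wild-type marrow (edgeR adjusted p = 0.005204). Of 4 tested relatives and partners of Zfp711, none rose and Kdm7a, a histone demethylase gene, fell.

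Among all tested relatives the largest fitted ratio was that of Evc, on the EvC and hedgehog list. Of its 19 tested genes other than Evc2, Evc, Gli2 and Smo rose in wild-type fetal liver and none fell. Evc encodes the partner of EVC2 and lies 1530 bases from Evc2 on the opposite strand (chr5:37288970-37336947). Evc had 9.31, 12.3 and 7.91 CPM in the libraries labelled Lin28b knockout, 11.2 CPM in the inducible let-7 library and 7.67, 6.19 and 14.2 CPM in wild-type fetal liver. It had 0.108, 0 and 0.260 CPM in let-7b/c knockout marrow and 0.0993, 0 and 0 CPM in wild-type marrow. Evc thus shared with Evc2 a near absence in wild-type marrow, with 532 counts in wild-type fetal liver against 2 there, a ratio of 254 (exact counting interval 70.0 to 2104, edgeR adjusted p = 1.456e-05). Evc was at 9.85 ± 2.25 CPM in the labelled knockout and 9.36 ± 4.27 CPM in wild-type fetal liver (SD, n = 3 each, edgeR adjusted p = 0.937). It was not called in let-7b/c knockout marrow (edgeR adjusted p = 0.591), where Evc2 was, and the difference between these genes was not tested. Gli2, a transcription factor of the pathway, was at 0.922 ± 0.546 CPM in wild-type fetal liver and at 0 in wild-type marrow (edgeR adjusted p = 0.009138). Smo, the membrane protein that activates it, was at 133 ± 3.54 and 104 ± 9.74 CPM (edgeR adjusted p = 0.03058).

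**Figure D4:**
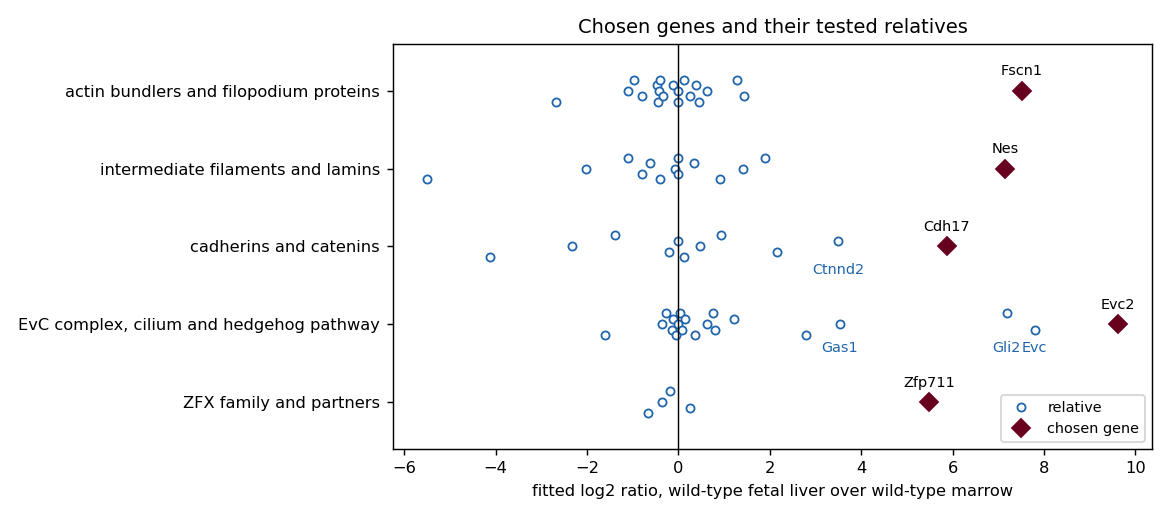
Fitted log2 ratio of wild-type fetal liver over wild-type marrow for the 5 chosen genes (diamonds) and their tested relatives (circles), by list. Apart from Evc and Gli2, relatives lay below the chosen gene of their list by more than 2 log2 units.

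In the libraries labelled Lin28b knockout, set against those of wild-type fetal liver, the relatives moved in both directions, as did all genes tested, of which 20.8% were called higher and 23.0% lower. The counts over the lists were not tested against those shares. Of the 19 actin genes, 5 rose and 7 fell, among them Fmnl3, a formin of filopodia, at 16.5 ± 3.22 against 65.2 ± 4.78 CPM (edgeR adjusted p = 1.623e-08). Of the 13 filament genes, 4 rose and 5 fell. Gfap, a glial filament gene, was at 22.0 ± 3.73 and 0.0633 ± 0.0686 CPM (edgeR adjusted p = 4.788e-05), and Lmna was at 53.8 ± 4.49 and 0.541 ± 0.147 CPM (edgeR adjusted p = 2.032e-06). Vim fell with a log2 difference of -1.12 ± 0.17 SE (edgeR adjusted p = 6.527e-05). Of the 10 cadherins and catenins, Cdh5, Cdh1 and Cdh2 rose and Jup fell. Of the 19 EvC and hedgehog genes, none rose and 6 fell, among them Smo at 35.9 ± 6.92 against 133 ± 3.54 CPM (edgeR adjusted p = 4.728e-09). Of the 4 relatives of Zfp711, Kdm7a rose to 503 ± 59.0 CPM in the labelled knockout, against 24.9 ± 4.57 CPM in wild-type fetal liver (edgeR adjusted p = 8.11e-10), and Kdm5c also rose. None of these 5 lists had a called gene in let-7b/c knockout marrow, where 2.25% of all genes were called, and 1 did with inducible LIN28B, where Nefh rose to 73.7 ± 2.47 CPM, against 31.4 ± 3.36 CPM in wild-type marrow (edgeR adjusted p = 0.0006813). With vavcre, where 12.5% of all genes were called higher and 14.3% lower, 1 of 19 actin genes rose and 1 fell, of 13 filament genes none rose and 3 fell, of 10 cadherins and catenins 1 rose and 2 fell, of 19 EvC and hedgehog genes 1 rose and 6 fell, and of 4 relatives of Zfp711 1 fell.

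The genes most like each member were sought among 8972 genes by the correlation of log2 CPM over all 17 libraries, which fall into a fetal and a marrow set, so the values describe likeness and carry no test. Sox18 (Pearson r = 0.96), Npm1 (0.95) and Ndn (0.95) were most like Fscn1. Tars (0.92), Zcchc3 (0.87) and Pafah1b2 (0.86) were most like Nes. Grrp1 (0.93), Rag1 (0.88) and Mtap (0.88) were most like Cdh17. Thop1 (0.97), Ccdc86 (0.96) and C1qbp (0.96) were most like Evc2, and Cse1l (0.92), Hnrnpu (0.91) and Smarca5 (0.90) were most like Zfp711. Rag1, which recombines antigen receptor genes in lymphocytes, had 1.64 CPM in the labelled Lin28b knockout, 0.0388 CPM in the inducible let-7 library and 9.55 CPM in wild-type fetal liver as group means, close to the pattern of Cdh17. Grrp1 was at 0.737, 0 and 5.73 CPM in these groups. Ndn, an imprinted gene on the list for Fscn1, was at 4.98, 32.2 and 29.1 CPM.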

How the data were processed

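The deposited values are raw counts per RefSeq transcript for each library, made by the authors with HTSeq. The submitters' processing notes also name cutadapt, TopHat2 and mm10; no source names versions, settings or strand use, so reads from an overlapping antisense transcript could not be told apart. Per the labels' protocols, total RNA was amplified with SMARTer ultra-low-input chemistry. RefSeq named 33435 of 33818 accessions and GENCODE vM21 named 191, which left 192 unnamed. Summing transcripts gave 24416 genes, and each of the 5 genes has 1 accession. Reads that fit several transcripts (23.8% to 29.8%) or none (8.87% to 19.3%) were left out.

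The main test was the quasi-likelihood test of edgeR 4.0.16 with TMM scaling and the filterByExpr filter (13558 genes), 1 fit of 17 libraries with 7 group means. A call needed a p under 0.05 after Benjamini-Hochberg adjustment. Scripts were tested on simulated data. Alternatives were plain library sizes, no filter, genes with 1 transcript, fits of the compared groups alone, the mean of mutant marrow groups, each library left out, and DESeq2 1.42.0. Log2 CPM used a prior count of 2. Other tools were R 4.3.3, Python 3.11.15, pandas 2.3.3, numpy 2.4.6, scipy 1.17.1 and matplotlib 3.10.9.

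The members, lists and tests were chosen with earlier results of these data known. Genes named beside the members were up to 3 called genes of each list by smallest p, and for likeness the 3 genes of highest correlation among those at a mean of 1 CPM or more. Gfap, Vim, Il7r and single markers were named to describe cell content or a member's filament partner. Lncppara was added after its values were seen, to check the let-7b/c knockout label.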

Additional observations from a re-analysis of the deposited data

How the results depend on the processing

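Among the 5 genes, 52 of 55 recomputed values for the labelled Lin28b knockout set against wild-type fetal liver and 58 of 59 for it against let-7b/c knockout marrow kept their direction and their side of the threshold. Against wild-type fetal liver Nes passed with no filter (log2 -1.83, edgeR adjusted p = 0.0482) and in a fit of those groups alone (-1.81), as Evc2 did there (-0.58). In the vavcre line against wild-type marrow, DESeq2 gave 3.72 for Nes, no longer called, and Zfp711 passed with no filter (2.10) and in a fit of those groups alone (2.10). Calls over all genes went to 784 by DESeq2 for the let-7b/c knockout (main count 305), to 191 with no filter, 268 in a fit of 2 groups and 387 by DESeq2 for inducible LIN28B (109), and to 2007 in a fit of 2 groups for vavcre (3634). In such fits, members under the filter gave no value. Plain library sizes moved the median log2 difference of all genes to -0.19, -0.30 and -0.19 for the labelled knockout against wild-type fetal liver, against let-7b/c knockout marrow, and for wild-type fetal liver against marrow.

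With each library left out in turn, log2 values ran from 0.61 to 3.18 for Zfp711 in the labelled knockout against let-7b/c knockout marrow. For let-7b/c knockout against wild-type marrow they ran from -1.54 to 0.027 (Fscn1), -4.86 to 0.17 (Nes), -4.94 to 2.73 (Cdh17) and -1.60 to 0.85 (Zfp711), none called, and calls over all genes from 96 to 378. For inducible LIN28B they ran from -0.15 to 2.92 (Nes), -0.62 to 6.29 (Cdh17) and -0.51 to 1.26 (Zfp711), none called, and calls from 26 to 62. For vavcre they ran from -6.00 to -0.69 (Fscn1, called only without library 6), -4.83 to 4.79 (Nes, not called without vavcre library 4 or wild-type marrow library 2 or 5), -4.92 to 2.09 (Cdh17) and 1.35 to 2.58 (Zfp711, called without library 4). Where a fit left 1 library in a group, that library was taken to vary like the other groups. The cause was not tested for any of these changes. Members at a few counts in marrow are limited by depth. No paired analysis was possible because the groups compared share at most 1 replicate number and the labels do not tie numbers to a shared animal or batch.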
